A study of Mus musculus with 11 samples.

Results

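Genes of cholesterol and fatty acid synthesis were examined in orthotopic E0771 tumors with and without depletion of pyruvate carboxylase (PC). The set was chosen by gene symbol and held 29 genes, of which 26 were matched to a probe set among 19505 gene symbols on the array. They fall into a sterol arm (17 of 18 measured), regulators of the sterol response (4 of 5 measured) and a fatty acid arm (5 of 6 measured). Tm7sf2, Srebf1 and Scd2 were not matched and are not analysed here. Each measured gene had a single probe set. E0771 is a mammary carcinoma line from C57BL/6 mice. Each tumor grew from 500000 of these cells placed in mammary fat pad number 4 of otherwise untreated C57BL6J mice. The cells carried a lentiviral hairpin against Pcx, the gene of PC, named shPC25 (3 tumors) or shPC28 (4 tumors), or a scrambled hairpin (scram, 4 tumors). The titles of all 11 tumors also carry LFD, which the labels do not spell out. All mice of the experiment had the same diet. Hairpins came from constitutive vectors kept under puromycin selection, and no repeat of the transduction is given, so the tumors within a group are repeats of the mouse and not of the cells. RNA was taken from whole tumors. Fewer cells of a type and less RNA per cell cannot be told apart in such samples.

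Cells build cholesterol from acetyl-CoA through mevalonate, farnesyl pyrophosphate, squalene and lanosterol. When sterols in the endoplasmic reticulum run low, SCAP escorts the membrane-bound factors SREBP1 and SREBP2 to the Golgi, where they are cut and released to switch on the genes of the route, while INSIG proteins hold SCAP back when sterols are plentiful. Fatty acids start from the same acetyl-CoA, which ATP citrate lyase makes from citrate leaving the mitochondria, and citrate draws on oxaloacetate, the product of PC. SREBP2 is best known for the sterol genes and SREBP1c for the fatty acid genes, and the factors commonly act beside NF-Y, which reads CCAAT, and Sp1, which reads GGGCGG.

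Promoter sequences are shown for Hmgcs1 and Mvk, early enzymes of the mevalonate route whose signals varied with those of the other sterol genes, for Hsd17b7, the member with the smallest p-value between groups, and for Fasn, a fatty acid gene that did not vary with them. RefSeq promoters of GRCm38.p6 were found for 21 of the 26 measured genes (27 promoters). The table gives none for Fdft1, Fdps, Scd1, Sqle and Stard4. Each line holds the 250 bases before the annotated start, 5′ to 3′ along the gene. Capitals mark TCACNCCAC, the core of a sterol regulatory element, or CCAAT, on the shown strand or as the reverse complement (ATTGG for CCAAT). The windows are chr13:119690101-119690350 (plus strand) for Hmgcs1, chr5:114444019-114444268 (plus strand) for Mvk, chr1:169969206-169969455 (minus strand) for Hsd17b7 and chr11:120824548-120824797 (minus strand) for Fasn.
Hmgcs1: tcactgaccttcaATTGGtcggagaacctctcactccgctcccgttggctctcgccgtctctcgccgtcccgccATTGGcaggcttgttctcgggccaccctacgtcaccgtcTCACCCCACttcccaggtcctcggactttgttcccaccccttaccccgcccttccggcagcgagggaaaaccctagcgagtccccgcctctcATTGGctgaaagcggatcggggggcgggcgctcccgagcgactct
Mvk: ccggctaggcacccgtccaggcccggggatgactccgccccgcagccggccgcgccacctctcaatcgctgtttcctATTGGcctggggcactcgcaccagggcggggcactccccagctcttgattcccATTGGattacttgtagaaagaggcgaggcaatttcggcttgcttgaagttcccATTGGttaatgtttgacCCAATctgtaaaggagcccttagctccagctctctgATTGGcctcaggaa
Hsd17b7: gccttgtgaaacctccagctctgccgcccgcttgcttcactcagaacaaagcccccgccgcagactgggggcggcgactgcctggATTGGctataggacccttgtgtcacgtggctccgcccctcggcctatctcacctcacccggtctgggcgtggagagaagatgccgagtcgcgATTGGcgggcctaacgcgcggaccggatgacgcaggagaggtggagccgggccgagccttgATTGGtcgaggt
Fasn: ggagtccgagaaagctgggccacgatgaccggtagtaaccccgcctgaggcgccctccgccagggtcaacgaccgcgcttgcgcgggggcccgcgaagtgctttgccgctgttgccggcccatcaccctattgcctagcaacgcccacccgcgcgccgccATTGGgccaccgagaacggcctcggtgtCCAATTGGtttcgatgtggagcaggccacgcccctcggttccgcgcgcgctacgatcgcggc

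CCAAT was searched on both strands of the whole promoter entry, which runs from 250 bases before the start to 50 bases after it. It was found in 13 of 16 sterol arm promoters (81.2%), so that each of the 13 sterol genes with an entry had at least 1 promoter holding it. In the fatty acid arm it was found in 2 of 4 promoters, and 37.4% of all 32851 promoters in the table held it. Mvk had 5 matches, at -173, -120, -67, -50 and -14 from the start, and Hmgcs1 had 4. Fasn had 3, of which a pair overlapped (CCAATTGG in the line above). GGGCGG was found in 13 of 16 sterol arm promoters and in 1 of 4 fatty acid arm promoters, against 35.7% of all. TCACNCCAC was found in 1 of the 27 promoters, that of Hmgcs1 at -137, against 1.24% of all. A match describes the letters only.

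Arrays gave 1 log2 signal for each of 22206 probe sets. Array medians lay between 5.89 and 6.08, and arrays correlated with each other at 0.987 to 0.994 across probe sets. All 26 members lay above 4.30, the 95th percentile of 1091 olfactory receptor probe sets, in every tumor, and the lowest signal of any member was 7.98. Pcx itself was not above that limit except in scram replicate 3, at 2.32 to 3.76 in the 7 tumors with a hairpin against it and 3.41 to 4.48 in scram tumors. Its signals overlapped between groups and lay at background, so they do not check the depletion. The difference of means was -0.81 (exact two-sided permutation p = 0.0212 over 330 splits, limma adjusted p = 0.388), and the permutation p was 0.05, 0.0833 and 0.05 without scram replicate 2, 3 or 4. Lists of host cell markers had medians away from 0, although no gene in them passed (smallest adjusted p = 0.0729 in limma, for a fibroblast marker). Fibroblast markers had a median difference between the shPC tumors and scram of -2.06 (9 of 9 lower, mean signals 6.99 to 8.94 in shPC tumors and 8.82 to 11.06 in scram), neutrophil markers -2.01 (7 of 7 lower, 7.66 to 9.62 in shPC tumors and 9.21 to 11.87 in scram) and macrophage markers -0.66 (8 of 8 lower, 11.03 to 11.93 in shPC tumors and 12.01 to 12.44 in scram). Adipocyte markers had a median of -0.12 (6 of 11 lower, 5.05 to 5.86 in shPC tumors and 5.12 to 6.09 in scram). Plin1, Lep, Plin4 and Pck1 among them lay below 4.30 in every tumor. Lymph node and B cell genes averaged 9.26 in shPC28 replicate 4 and 3.74 to 4.51 in the other 10 tumors. Mammary epithelium markers had a median of -0.38 (4 of 6 lower).

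The first question was whether PC depletion altered these genes in the tumor. When both shPC groups were set against scram no member passed, and the limma fit called 3 of 22206 probe sets (0.0135%) at a Benjamini-Hochberg adjusted p below 0.05. At an unadjusted p below 0.05 there were 2 of 26 members, both lower, where 4.76% of all probe sets were lower at that level. No member was without overlap (0.703% of all probe sets were lower without overlap). The methods' t-test also called no member, and it called no probe set at all (1958 at an unadjusted p below 0.05). Of the sterol arm, 14 of 17 genes were below scram with a median of -0.24, where 46.4% of all probe sets were below scram and their median was 0.02. Pmvk, Fdps and Ebp were the 3 above scram. These counts rested on few scram tumors. Without scram replicate 4 there were 17 of 17 lower with a median of -0.43, and without scram replicate 2 there were 12 with a median of -0.08. Without shPC28 replicate 4, the tumor with high signals of lymph node and B cell genes, there were 14. With each array centred on its median the count was also 14, the median of the arm was -0.14 and that of all probe sets was 0.11.

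**Figure D1:**
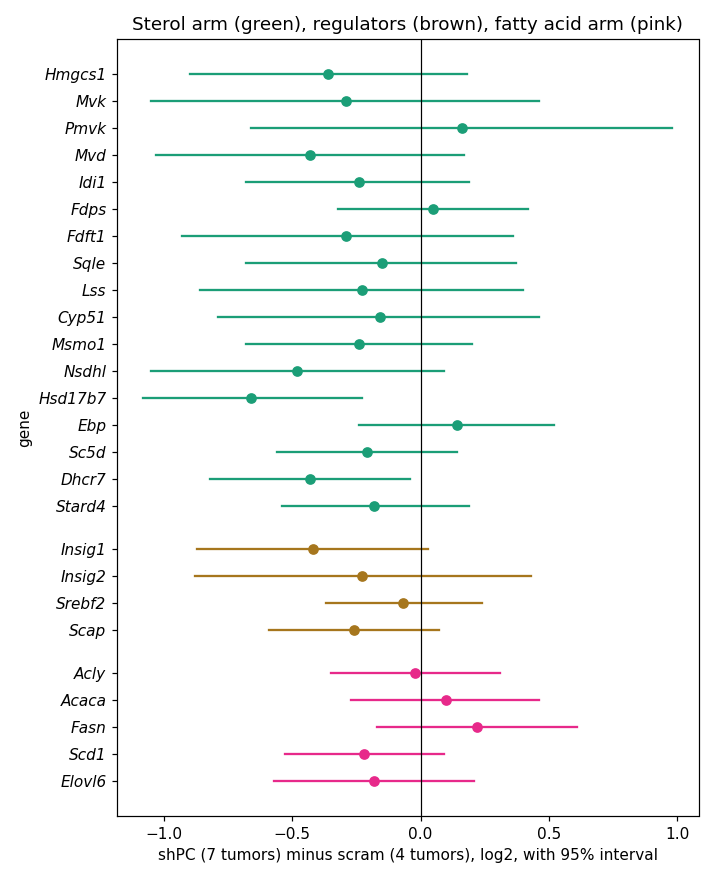
Difference between both shPC groups and scram in log2 signal (x axis) for each of the 26 measured genes (y axis), with points for the limma estimate and lines for the 95% interval. The intervals of Hsd17b7 (-1.08 to -0.23) and Dhcr7 (-0.82 to -0.04) lie below 0 without adjustment, and those of the other genes reach across 0.

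Hsd17b7, which reduces the ketone at carbon 3 late in the route, had the smallest p-value. Its signals were 12.14, 12.01 and 11.93 in shPC25 tumors, 12.36, 11.55, 12.25 and 11.81 in shPC28 tumors, and 12.80, 13.06, 12.55 and 12.25 in scram tumors. The mean of scram was above each of the 7 shPC tumors, and 5 were under every scram tumor, with overlap from shPC28 replicates 1 and 3. The difference from scram was -0.66 (SE 0.19, 95% interval -1.08 to -0.23), with an adjusted p of 0.312 in limma. That is the closest any member came to the threshold.

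Dhcr7, the enzyme of the final reduction to cholesterol, was next. Its signals were 11.66, 11.54 and 12.00 in shPC25 tumors, 11.07, 11.42, 11.95 and 11.64 in shPC28 tumors, and 12.25, 12.21, 11.90 and 11.85 in scram tumors. As with Hsd17b7, the scram mean was above each of the 7 shPC tumors and 5 were under every scram tumor, while shPC25 replicate 3 and shPC28 replicate 3 reached into the scram range. The difference was -0.43 (SE 0.18, 95% interval -0.82 to -0.04, adjusted p = 0.514 in limma). Both genes were among the sterol genes that kept their sign with every tumor left out in turn, at -0.79 to -0.52 for Hsd17b7 and -0.50 to -0.35 for Dhcr7.

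Nsdhl acts with Msmo1 and Hsd17b7 in removing the methyl groups at carbon 4. Its signals were 12.41, 11.47 and 12.44 in shPC25 tumors, 12.09, 12.13, 12.62 and 11.86 in shPC28 tumors, and 13.08, 12.95, 12.51 and 11.96 in scram tumors. The low value of shPC25 replicate 2 set it apart from the other tumors of its group, and the groups overlapped. The difference was -0.48 (SE 0.26, adjusted p = 0.63 in limma). Its partner Msmo1 differed by -0.24 (SE 0.20).

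Mvd, which makes isopentenyl pyrophosphate, had signals of 11.99, 11.80 and 11.63 in shPC25 tumors, 11.46, 11.30, 11.99 and 10.95 in shPC28 tumors, and 12.35, 12.78, 11.78 and 11.28 in scram tumors. Each of the 7 shPC tumors was below the mean of scram, but only shPC28 replicate 4 lay below every scram tumor. The difference was -0.43 (SE 0.28, adjusted p = 0.701 in limma), and it was -0.19 without scram replicate 2.

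The remaining 13 sterol genes differed by -0.36 to 0.16. Hmgcs1, the synthase that makes HMG-CoA, differed by -0.36 (SE 0.24) and the mevalonate kinase Mvk by -0.29 (SE 0.34). Among the isoprenoid steps, the isomerase Idi1 differed by -0.24 (SE 0.20), the phosphomevalonate kinase Pmvk by 0.16 (SE 0.37) and the farnesyl pyrophosphate synthase Fdps by 0.05 (SE 0.17). Squalene is made by Fdft1 (-0.29, SE 0.29), oxidized by Sqle (-0.15, SE 0.24) and closed into lanosterol by Lss (-0.23, SE 0.29). Of the enzymes that act on lanosterol and its products, the demethylase Cyp51 differed by -0.16 (SE 0.28), the isomerase Ebp by 0.14 (SE 0.17) and the desaturase Sc5d by -0.21 (SE 0.16). Stard4, a carrier of cholesterol between membranes, differed by -0.18 (SE 0.17). Every one of these differences was smaller than the range among the 4 scram tumors. Across the sterol arm that range had a median of 1.12 log2 units, and it was wider than the difference between groups in 16 of 17 genes, Dhcr7 being the exception.

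**Figure D2:**
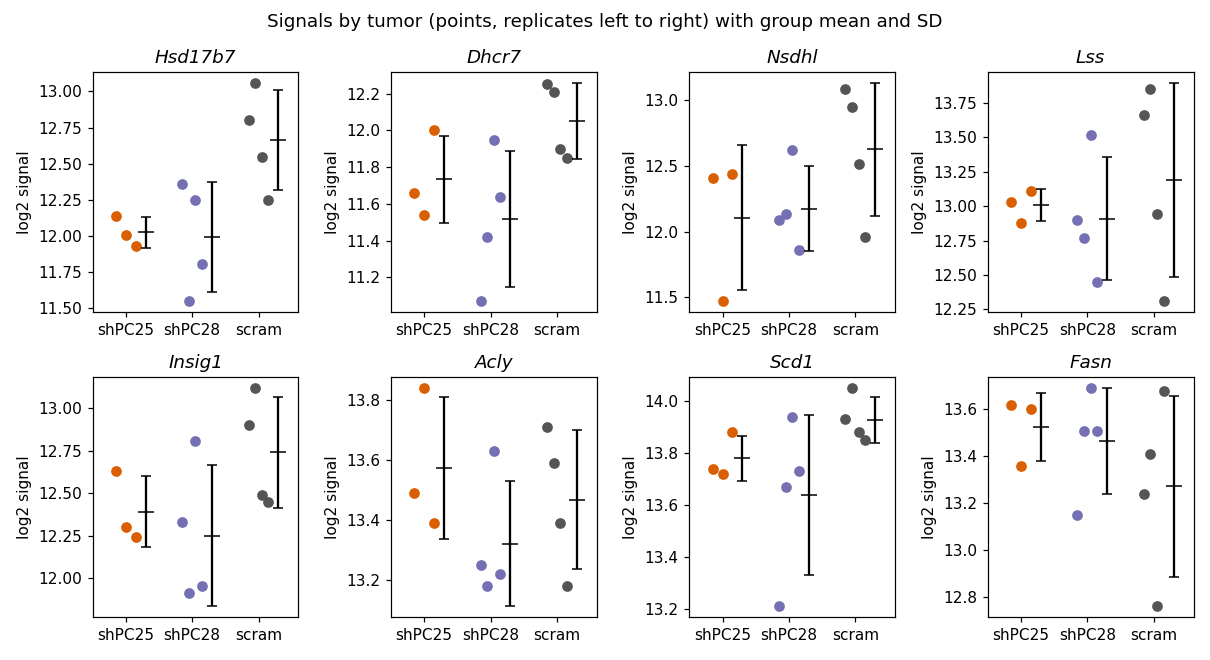
Log2 signal (y axis) of 8 genes in shPC25, shPC28 and scram tumors (x axis, left to right), with a point for each tumor and a bar for the group mean and SD. Hsd17b7 and Dhcr7 each have 5 shPC tumors below every scram tumor, while Lss spans 12.31 to 13.85 within scram alone.

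Each hairpin was then set against scram. In shPC25 tumors no member passed (0% of probe sets called by limma) and 1 was lower at an unadjusted p below 0.05 (4.16% of probe sets). Of the sterol genes 14 of 17 were lower, with a median of -0.19 (47.3% of probe sets lower). Hsd17b7 differed by -0.64 (SE 0.23, adjusted p = 0.489 in limma), and its shPC25 signals did not overlap with scram. It was the only such member of 26, where 3.4% of all probe sets were lower without overlap. Nsdhl differed by -0.52 (SE 0.32, adjusted p = 0.708 in limma). In shPC28 tumors no member passed either (0% of probe sets called by limma) and 2 were lower at an unadjusted p below 0.05 (3.72% of probe sets). Of the sterol genes 15 of 17 were lower, with a median of -0.26 (47.5% of probe sets lower). Hsd17b7 differed by -0.67 (SE 0.22, adjusted p = 0.486 in limma) and Dhcr7 by -0.53 (SE 0.20, adjusted p = 0.577 in limma), and no member was without overlap, where 2.12% of all probe sets were lower without overlap. Both comparisons use the same 4 scram tumors. Without scram replicate 4 the medians were -0.40 for shPC25 and -0.47 for shPC28, and without scram replicate 2 they were -0.05 and -0.09. With each array centred on its median the shPC25 value was -0.07, where the median of all probe sets was 0.14.

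The hairpins were also compared with each other. In shPC28 minus shPC25 no member passed (0% of probe sets called by limma), and 0 members were lower in shPC28 at an unadjusted p below 0.05 (2.46% of probe sets) or without overlap (2.68% of probe sets). Of the sterol genes 13 of 17 were lower in shPC28, with a median of -0.09 (50.2% of probe sets lower). The smallest p-values belonged to Acly and Mvd. Acly signals were 13.25, 13.18, 13.63 and 13.22 in shPC28 tumors, 13.49, 13.84 and 13.39 in shPC25 tumors, and 13.71, 13.59, 13.39 and 13.18 in scram tumors. Apart from replicate 3, shPC28 tumors lay below every shPC25 tumor. The difference was -0.25 (95% interval -0.66 to 0.15, adjusted p = 0.993 in limma). For Mvd it was -0.38 (95% interval -1.11 to 0.35, adjusted p = 0.993 in limma).

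Of the regulators, all 4 measured genes were below scram, where 46.4% of all probe sets were. The median of the 4 was -0.24 (-0.15 with each array centred on its median), and none passed. With that centring Srebf2 was above scram, at 0.03. Insig1, the anchor that keeps SCAP in the endoplasmic reticulum and is itself a target of SREBP, had signals of 12.63, 12.30 and 12.24 in shPC25 tumors, 12.33, 11.91, 12.81 and 11.95 in shPC28 tumors, and 12.90, 13.12, 12.49 and 12.45 in scram tumors. In 5 of the 7 shPC tumors it lay below every scram tumor, while shPC25 replicate 1 and shPC28 replicate 3 lay inside the scram range. The difference was -0.42 (SE 0.20, adjusted p = 0.583 in limma). Scap signals were 12.43, 11.84 and 12.45 in shPC25 tumors, 12.28, 12.43, 12.26 and 12.30 in shPC28 tumors, and 12.63, 12.78, 12.33 and 12.41 in scram tumors. The scram mean was above each of the 7 shPC tumors and 4 were under every scram tumor, with shPC25 replicate 2 the lowest. Scap differed by -0.26 (SE 0.15, adjusted p = 0.662 in limma).

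Srebf2, which encodes SREBP2, was nearly level. Its signals were 15.87, 15.62 and 15.67 in shPC25 tumors, 15.62, 15.83, 16.02 and 15.63 in shPC28 tumors, and 15.96, 16.04, 15.71 and 15.55 in scram tumors. The highest and the lowest tumor were both scram, so no shPC tumor lay outside the scram range. The difference was -0.07 (SE 0.14, adjusted p = 0.928 in limma), and it was 0.03 with each array centred on its median. Insig2, the second anchor, scattered widely, with 10.24, 9.44 and 9.09 in shPC25 tumors, 10.53, 9.93, 9.35 and 9.82 in shPC28 tumors, and 10.12, 9.35, 10.66 and 9.77 in scram tumors. The groups overlapped over nearly their whole range, and the difference was -0.23 (SE 0.30, adjusted p = 0.873 in limma). The Srebf2 signal reports the transcript and not the cut, active protein.

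The fatty acid arm had no common direction. Of its 5 genes 3 were below scram and 2 above, with a median of -0.02 (0.07 with each array centred on its median), and none passed. Scd1, the stearoyl-CoA desaturase that makes oleate, had signals of 13.74, 13.72 and 13.88 in shPC25 tumors, 13.21, 13.67, 13.94 and 13.73 in shPC28 tumors, and 13.93, 14.05, 13.88 and 13.85 in scram tumors. Scram tumors lay close together and 5 of 7 shPC tumors lay below all of them, with the lowest signal in shPC28 replicate 1. The difference was -0.22 (SE 0.14, adjusted p = 0.708 in limma). Scd1 has a near relative, Scd2, which is not analysed here.

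Fasn, the synthase that makes palmitate, leaned the other way. Its signals were 13.62, 13.36 and 13.60 in shPC25 tumors, 13.15, 13.51, 13.69 and 13.51 in shPC28 tumors, and 13.24, 13.41, 12.76 and 13.68 in scram tumors. Scram replicate 3 was the lowest of all tumors and scram replicate 4 nearly the highest, so the groups overlapped. The difference was 0.22 (SE 0.18, adjusted p = 0.767 in limma), and it was 0.05 without scram replicate 3. Elovl6, which lengthens palmitate, had signals of 12.77, 13.18 and 13.02 in shPC25 tumors, 12.42, 12.90, 12.99 and 12.85 in shPC28 tumors, and 13.32, 13.37, 12.60 and 13.00 in scram tumors. Scram replicates 1 and 2 were above every shPC tumor, and scram replicate 3 was below all but shPC28 replicate 1. Elovl6 differed by -0.18 (SE 0.18, adjusted p = 0.819 in limma). Acly, the lyase that makes cytosolic acetyl-CoA, differed by -0.02 (SE 0.15), and Acaca, the carboxylase that makes malonyl-CoA, by 0.10 (SE 0.17). With each array centred on its median Acly was at 0.07. By hairpin the median of the arm was 0.05 for shPC25 and -0.15 for shPC28, and with centring it was 0.18 and -0.08.

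The larger variation in the sterol arm lay between tumors of the same group. The mean log2 signal of its 17 genes was 12.58, 12.41 and 12.47 in shPC25 tumors, 12.41, 12.26, 12.84 and 12.11 in shPC28 tumors, and 13.00, 13.16, 12.50 and 12.06 in scram tumors. The highest and the lowest tumor of all 11 were both scram. Scram replicate 2 was the highest tumor for 11 of 17 genes and among the top 3 for 17 of 17. Scram replicate 4 was the lowest tumor for 8 genes and among the bottom 3 for 15, and shPC28 replicate 4 was the lowest for 6. On the high side, shPC28 replicate 3 was among the top 3 for 13 genes. The plot of members by tumor shows these as columns mostly of a single color within the sterol arm.

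**Figure D3:**
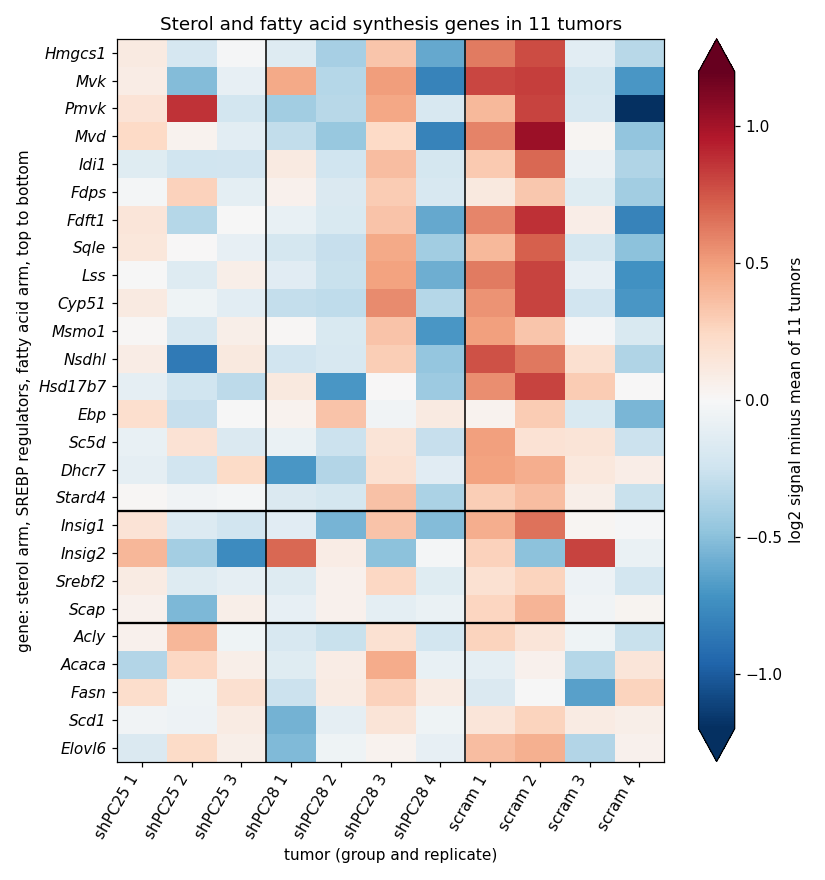
Log2 signal of each of the 26 measured genes (rows) in each tumor (columns, shPC25, shPC28 and scram from left to right), drawn as the difference from the gene's mean over 11 tumors. Black lines part the sterol arm, the regulators and the fatty acid arm from top to bottom, and scram replicate 2 is above the mean for 17 of 17 sterol genes while scram replicate 4 is above it for 2.

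Group means of the sterol arm were 12.48 ± 0.08 in shPC25 (SD, n = 3), 12.41 ± 0.31 in shPC28 (SD, n = 4) and 12.68 ± 0.50 in scram (SD, n = 4). The scram SD was the largest of the 3 groups in 12 of 17 sterol genes (70.6%), against 34.2% of all probe sets. In the median sterol gene the SD was 0.18 in shPC25, 0.39 in shPC28 and 0.51 in scram, and over all probe sets it was 0.27 in each group. This was not tested, since the genes vary together and are not independent. In the fatty acid arm the scram SD was the largest in 2 of 5 genes.

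Lss, picked after its values were seen as the gene closest to the rest of its arm, shows the pattern. Its signals were 13.03, 12.88 and 13.11 in shPC25 tumors, 12.90, 12.77, 13.52 and 12.45 in shPC28 tumors, and 13.66, 13.85, 12.94 and 12.31 in scram tumors. The scram tumors enclosed all 7 shPC tumors. Over the 11 tumors it correlated with the mean of the other 16 sterol genes at r = 0.98 (rho = 0.96), and at 0.97 over the 9 tumors left without scram replicates 1 and 2, which lay farthest from the median. Hmgcs1 (0.97), Fdft1, Sqle and Cyp51 (0.96 each), Stard4 (0.95) and Mvd (0.94) followed. The lowest in the arm were Ebp (0.36), Dhcr7 (0.58) and Pmvk (0.67), and Hsd17b7 was at 0.73. For Hsd17b7 and Dhcr7, the members with the smallest p-values between groups, the correlation was 0.31 and 0.18 over the 9 tumors. Over 11 tumors with group means removed it was 0.79 and 0.52.

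Over all 136 pairs of sterol genes the median r was 0.74 (median rho 0.74, 133 pairs above 0), a level that 0.685% of all pairs of probe sets reached. That share includes probe sets at background, whereas every sterol gene lay above background. With group means removed the median r of the sterol pairs was 0.79 and all 136 pairs were above 0. It was 0.61 without scram replicates 1 and 2 and 0.63 within the 7 shPC tumors. The 85 pairs of a sterol with a fatty acid gene had a median of 0.32, and 0.14 without those scram tumors. These values describe 11 shared arrays and genes that are not independent, and carry no test.

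Regulators and fatty acid genes differed in how they followed the sterol arm. Insig1 (r = 0.87) and Srebf2 (0.86) followed it over 11 tumors, at 0.72 and 0.76 over the 9 tumors, whereas Scap (0.50) and Insig2 (-0.17) were at -0.12 and -0.10 over the 9. Acly (0.69) followed in part, at 0.64 over the 9. Elovl6 (0.52) and Scd1 (0.48) were at -0.05 and 0.20 over the 9, and Acaca (0.05) and Fasn (-0.14) did not follow. Outside the set, the mean of 16 other fatty acid genes correlated with the sterol arm at 0.74, and at 0.5 over the 9. The mean of 6 other sterol genes did not follow it, at -0.16, and 0.27 over the 9. Genes of SREBP processing were at 0.30 (0.08 over the 9), and those of LXR and cholesterol efflux at -0.20 (-0.32). The mean of the fatty acid arm was 12.75, 12.97 and 12.89 in shPC25 tumors, 12.48, 12.77, 13.04 and 12.75 in shPC28 tumors, and 12.92, 13.00, 12.56 and 12.87 in scram tumors. Scram replicate 4, the lowest tumor in the sterol arm, was above the average of this arm, while scram replicate 3 was near its low end. Both arms were high in shPC28 replicate 3 and in scram replicates 1 and 2.

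**Figure D4:**
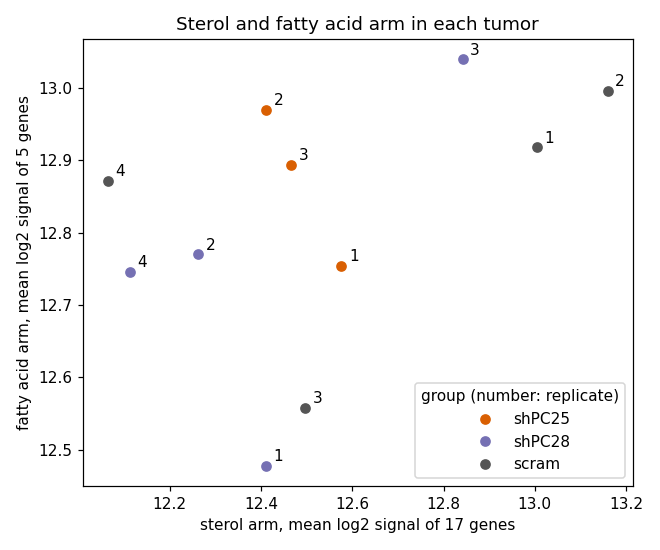
Mean log2 signal of the 17 sterol genes (x axis) against that of the 5 fatty acid genes (y axis), with a numbered point for each tumor colored by group. Along the x axis scram tumors run from 12.06 to 13.16 and enclose all 7 shPC tumors, and the arms correlate at r = 0.44 over 11 tumors and 0.21 over the 9 tumors without scram replicates 1 and 2.

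Host cell markers moved with the sterol arm in part. The mean of the fibroblast markers was 11.06 and 10.46 in scram replicates 1 and 2, which were also high in the sterol arm. In scram replicate 4, the lowest tumor in the sterol arm, it was 8.82, the lowest of the scram tumors but above 6 of the 7 shPC tumors. Over 11 tumors it correlated with the sterol arm at r = 0.59, and at -0.03 over the 9 tumors without scram replicates 1 and 2. Skeletal muscle markers were at 0.60 and 0.32, neutrophil markers at 0.40 and -0.13, macrophage markers at 0.21 and -0.25, and adipocyte markers at -0.36 and -0.09 in the same terms. Means of the muscle list ran from 4.38 to 5.92, and Myh4 was above the background limit of 4.30 only in scram replicate 2. Plin1, Lep, Plin4 and Pck1 of the adipocyte list were below it in every tumor, so the muscle and adipocyte values are in part background. The part of host cells in the variation of the sterol genes was not tested.

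Other genes of lipid synthesis were taken from lists beside the members, and none of them passed in any comparison. Of the other sterol genes 6 of 12 were measured and 4 were below scram (median -0.11). Those with the smallest p-values were Lbr, a sterol reductase of the nuclear envelope (-0.20, SE 0.12), and Npc2, which carries cholesterol out of lysosomes (-0.22, SE 0.13). Of the other fatty acid genes 16 of 17 were measured and 13 were below scram (median -0.15). Me1, the malic enzyme that supplies NADPH, differed by -1.68 (SE 0.58, adjusted p = 0.396 in limma), Fads1, the delta-5 desaturase, by -0.42 (SE 0.14, adjusted p = 0.407 in limma) and Mid1ip1, an activator of acetyl-CoA carboxylase, by -0.63 (SE 0.21, adjusted p = 0.394 in limma), at a mean of 4.29 in shPC25 tumors, near background. For Me1 and Fads1, 7 of 7 shPC tumors had signals under the mean of scram. Proteins that process SREBP had a median of -0.08 over 5 of 7 measured genes, led by Spring1 (-0.42, SE 0.20). Genes of the oxysterol receptor LXR and of cholesterol efflux had a median of -0.43, with 6 of 7 lower. Among them Ch25h, which makes 25-hydroxycholesterol and is expressed by macrophages, differed by -1.16 (SE 0.30, adjusted p = 0.244 in limma). Its signals were 8.11, 7.74 and 8.61 in shPC25 tumors, 9.55, 8.74, 8.93 and 10.28 in shPC28 tumors, and 9.51, 10.48, 9.68 and 10.04 in scram tumors. Only shPC25 tumors were without overlap with scram (-1.77, SE 0.37), where 3.4% of all probe sets were lower without overlap. In shPC28 tumors Ch25h differed by -0.55 (SE 0.34), with replicate 4 above the scram mean. Mid1ip1 was also lower without overlap in shPC25 tumors, and Fads1 in shPC28 tumors (2.12% of all probe sets). The exporter Abca1 differed by -0.68 (SE 0.34). Macrophage markers had a median of -0.66 in the same comparison, and their part in these differences was not tested.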

How the data were processed

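Transcript levels were measured in 11 tumors (3 shPC25, 4 shPC28, 4 scram) on mouse Clariom S arrays. The authors extracted RNA from the excised tumors, labelled it with a whole transcript kit and ran the arrays through Transcriptome Analysis Console. Values were deposited as log2 signals that the authors had normalized between arrays. For the summarization method and background correction, the sources used here give no name. Groups and replicate numbers come from the labels, which give no batch or scan date.

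Gene symbols came from the platform annotation, and all 26 members matched the RefSeq symbol of the same gene. The log2 values were used as deposited, with no filter. A group-means model of the 11 tumors was fitted for every probe set with lmFit and eBayes (limma 3.58.1, R 4.3.3), with two-sided tests, Benjamini-Hochberg adjustment over 22206 probe sets and a threshold of 0.05. The contrast of both shPC groups with scram averages the 2 hairpin groups. Pcx was tested by exact permutation. No label says which tumors were processed together, and the number of arrays limits the precision.

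Members, lists and tests were chosen with earlier results of these data known. Values in every tumor are given for the 4 sterol and 3 fatty acid members of smallest p, the 2 of smallest p in each other contrast, and the regulators. Lists are described by counts and medians, without a test. Correlations, motif letters and figures were made in Python 3.11.15 with numpy 2.4.6, pandas 2.3.3 and matplotlib 3.10.9. The fit was checked on simulated data with independent probe sets. Changes of 1 log2 unit were recovered in 53% of cases for both shPC groups against scram. For shPC25 it was 37% and for shPC28 43%. Changes as small as those of the members were not simulated. Alternatives were quantile normalization, median centring, dim probe sets left out, a trended and robust prior and array weights. Others were the replicate block, the t-test and tumors left out in turn. Counts of members lower under these alternatives and the correlations were added after the data had been seen.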

Additional observations from a re-analysis of the deposited data

Results flagged for a closer look

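Of 60 sets of 4 tumors examined, in the shPC28 and scram groups, 2 held a tumor far from the other 3 of its group by Dixon's criterion, for which chance alone gives about 1 in 20. Both involved shPC28 replicate 3. Cyp51 was at 14.87 there, against 13.96 to 14.01 in the other shPC28 tumors (gap over range 0.945). Acly was at 13.63 there, against 13.18 to 13.25 in the other shPC28 tumors (gap over range 0.844).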

How the results depend on the processing

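No member passed the threshold in any of the 4 contrasts under any alternative that was run. The count of all probe sets past it was less stable. For both shPC groups against scram it was 3 as reported, 22 with a trended and robust prior and 8 with array weights. It was 0 with quantile normalization, the t-test or the replicate block, and 0 to 8 with a tumor left out. Same-numbered tumors did not deviate together (r of -0.18 to 0.143), which cannot show whether the numbers pair tumors. No label says that they do, and the block is given only here. For shPC25 the count was 0 as reported, 1 with dim probe sets left out at either limit or with array weights, 2 with the trended prior and 0 to 6 with a tumor left out. For shPC28 it was 0, 9 with the trended prior and 0 to 1 with a tumor left out. Median centring put Srebf2 at 0.03 and Acly at 0.07, and the median of all probe sets at 0.11 instead of 0.02 (0.14 for shPC25, 0.08 for shPC28), with arm medians of -0.14 (sterol), -0.15 (regulators) and 0.07 (fatty acid), and left 14 of 17 sterol genes and 2 of 5 fatty acid genes lower and 30.4% of all probe sets lower instead of 46.4%. Array weights put Pmvk at -0.04 and Fdps at -0.03. With a tumor left out, differences whose sign turned ran from -0.26 to 0.46 for Pmvk, -0.08 to 0.17 for Fdps, -0.35 to 0.05 for Sqle, -0.43 to 0.07 for Cyp51, -0.01 to 0.27 for Ebp, -0.43 to 0.00 for Insig2, -0.16 to 0.01 for Srebf2 and -0.12 to 0.06 for Acly. The cause was not tested. The Pcx difference ran from -1.0 to -0.65 (exact permutation p of 0.00833 to 0.0833), and without scram replicate 2, 3 or 4 it no longer passed.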

Other observations

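Genes outside the set that varied with the sterol arm from tumor to tumor were ranked by Pearson's r over the 11 tumors, among 11958 named genes above background. The ranking was made after the values were seen and carries no test. The 5 highest were Aacs, Acat3, P2ry12, Fads2 and Idh1. Aacs, which turns acetoacetate into acetoacetyl-CoA in the cytosol, was at r = 0.95, and at 0.92 over the 9 tumors without scram replicates 1 and 2. Its signals were 11.31, 10.80 and 10.89 in shPC25 tumors, 11.11, 10.79, 11.36 and 10.64 in shPC28 tumors, and 11.52, 11.53, 10.99 and 10.53 in scram tumors. As in the sterol arm, scram replicates 1 and 2 were the highest tumors and scram replicate 4 was the lowest. Acat3, a close relative of the thiolase gene Acat2, was at 0.93 (0.84 over the 9). Fads2, the delta-6 desaturase of polyunsaturated fatty acids, was at 0.92 (0.87) and Idh1, a cytosolic source of NADPH, at 0.91 (0.86). P2ry12, an ADP receptor of platelets and some macrophages, was at 0.93 (0.87).

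At the other end of the same ranking stood Bcl2, which blocks apoptosis, at r = -0.90, and at -0.72 over the 9 tumors. Its signals were 11.34, 11.32 and 11.77 in shPC25 tumors, 11.28, 11.84, 11.35 and 12.03 in shPC28 tumors, and 10.67, 10.37, 11.24 and 11.82 in scram tumors. Scram replicates 1 and 2 were the lowest tumors. Tlcd3b followed at -0.89 (-0.73 over the 9) and Trim2 at -0.86 (-0.69).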
